A study of Homo sapiens with 13 samples.

Results

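DNMT1 is the maintenance methyltransferase: after replication it restores methyl groups on the unmethylated strand of CpG sites. UHRF1 binds hemimethylated CpGs and histone tails and brings DNMT1 to them, in part through the RFTS domain of DNMT1, which also folds over the catalytic pocket. Most CpG-dense promoters are unmethylated in dividing cells, whereas gene bodies and intergenic DNA are mostly methylated. The regions described here are those where GFP-DNMT1 peaks were called in every vehicle library and in none of the libraries treated with a DNMT1 inhibitor. They numbered 1427 of the 48763 regions in the merged lists, a share of 2.93%, and 18.1% of the 7868 regions with a peak in all 5 DMSO libraries. These 1427 regions are called members below. About as many lay at an end of a protein-coding gene (51.6%, 95% Wilson interval 49 to 54.2) as lay elsewhere. Of the other 6441 regions called in all 5 DMSO libraries, which kept a peak in 1 or more inhibitor libraries, 77.8% (76.8 to 78.8) lay at such an end. A larger share of members lay inside a coding gene away from its ends, outside every gene and at transfer RNA genes. Their promoters held fewer CpGs, and their vehicle peaks ranked lower.

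The cells were MV4-11, a human acute myeloid leukaemia line with a KMT2A-AFF1 fusion, in which chromatin fixed with disuccinimidyl glutarate and formaldehyde was precipitated with an antibody to GFP. All GFP-DNMT1 lines carried a guide against endogenous DNMT1 (gDNMT1) and overexpressed the tagged enzyme ectopically, as the wild-type protein in WT, NTC and UHRF1KO and as a mutant without its RFTS domain in RFTSdel. NTC also carried the control guide gNTC, and UHRF1KO a guide against UHRF1 (gUHRF1). Every line received DMSO or the inhibitor GSK-3685032 (DNMT1i, 100 nM) for 7 days, with 1 library for each treatment of NTC, UHRF1KO and WT and 2 for RFTSdel, and parental cells without GFP gave 1 library. The lists hold no check that a guide removed its target. Whether the 2 RFTSdel replicates were grown separately is not in the labels, so a p-value here may measure technical spread alone. By the sample labels WT, RFTSdel and parental cells were batch 1 and NTC and UHRF1KO batch 2, and a member needed calls from both batches. Members were found by pooling the peaks of the 10 GFP-DNMT1 libraries on chromosomes 1 to 22 and X, dropping those that overlapped a parental peak, and joining overlapping peaks. Members were chosen by the calls of all 10 libraries, so their presence under DMSO, their absence under DNMT1i and their peak strength are descriptions and were not tested. A region without a call is one where the authors' caller listed no peak, not one shown to be free of DNMT1.

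The promoters of members differed visibly in CpG content, and 6 are printed to show the range: the first 4 by peak strength that overlapped a promoter, and, beside them, the first 2 of the 103 regions called in all 10 libraries. Each is the 250 bases before the listed start, from RefSeq for GRCh38.p14, written along the gene's strand with CpG dinucleotides in capitals. The members lay at PEPD (a dipeptidase gene, chr19:33521792-33522041, minus strand), TMEM135 (chr11:87037684-87037933, plus strand), DHDDS (a subunit of the enzyme that makes dolichol, chr1:26432071-26432320, plus strand) and C2CD3 (a centriole protein, chr11:74171003-74171252, minus strand). The regions called in all 10 libraries lay at PHF19 (another listed start of which was at a member, chr9:120868269-120869390, of strength 56.5; a Polycomb-associated protein, chr9:120877189-120877438, minus strand) and SKIL (a repressor of TGF-beta signalling, chr3:170357465-170357714, plus strand).
PEPD: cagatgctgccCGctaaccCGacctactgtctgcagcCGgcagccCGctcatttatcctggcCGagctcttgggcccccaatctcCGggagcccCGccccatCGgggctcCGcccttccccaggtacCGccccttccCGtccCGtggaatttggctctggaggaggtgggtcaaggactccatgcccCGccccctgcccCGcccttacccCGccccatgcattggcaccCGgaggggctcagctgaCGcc
TMEM135: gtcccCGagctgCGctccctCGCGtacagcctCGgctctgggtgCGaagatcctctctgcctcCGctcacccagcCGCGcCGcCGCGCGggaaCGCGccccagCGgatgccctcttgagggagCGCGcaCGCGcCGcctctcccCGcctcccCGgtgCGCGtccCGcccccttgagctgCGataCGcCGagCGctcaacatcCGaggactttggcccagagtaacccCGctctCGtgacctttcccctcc
DHDDS: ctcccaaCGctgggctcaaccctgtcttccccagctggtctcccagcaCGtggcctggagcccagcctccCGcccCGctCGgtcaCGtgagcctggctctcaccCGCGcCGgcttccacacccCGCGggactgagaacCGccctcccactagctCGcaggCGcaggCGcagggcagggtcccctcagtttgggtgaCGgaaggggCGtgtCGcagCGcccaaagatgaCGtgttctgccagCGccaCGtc
C2CD3: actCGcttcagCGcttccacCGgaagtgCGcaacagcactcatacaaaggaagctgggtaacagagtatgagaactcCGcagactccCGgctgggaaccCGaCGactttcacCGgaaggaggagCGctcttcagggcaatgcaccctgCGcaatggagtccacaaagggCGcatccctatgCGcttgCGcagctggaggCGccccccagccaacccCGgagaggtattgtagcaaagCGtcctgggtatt
PHF19: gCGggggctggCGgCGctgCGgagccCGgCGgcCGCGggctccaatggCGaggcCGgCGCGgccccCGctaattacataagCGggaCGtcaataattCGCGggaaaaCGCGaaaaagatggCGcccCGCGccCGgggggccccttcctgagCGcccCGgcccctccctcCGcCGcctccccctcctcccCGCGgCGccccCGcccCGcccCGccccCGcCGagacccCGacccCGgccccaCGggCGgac
SKIL: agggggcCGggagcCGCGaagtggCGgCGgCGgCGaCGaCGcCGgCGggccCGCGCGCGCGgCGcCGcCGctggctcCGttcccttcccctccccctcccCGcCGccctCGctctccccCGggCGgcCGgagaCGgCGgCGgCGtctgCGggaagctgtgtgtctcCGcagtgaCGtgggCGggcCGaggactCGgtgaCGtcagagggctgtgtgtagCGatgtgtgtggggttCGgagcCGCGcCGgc

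The 4 member promoters held 17, 33, 22 and 17 CpGs in the order printed, and the 2 at regions called in all 10 libraries held 39 and 42. The observed to expected CpG ratio, which corrects for base composition, was 0.596 at PEPD, 1.08 at TMEM135, 0.736 at DHDDS and 0.767 at C2CD3. It was 1.03 at PHF19 and 1.1 at SKIL, so TMEM135 lay between the regions called throughout and the other 3 members lay below them. Short motifs also differed between the 4. PEPD held 6 matches to the GC box GGGCGG, bound by SP and KLF factors, C2CD3 held 2 to the ETS core CCGGAAG and none to the GC box, and DHDDS held 2 E-boxes, CACGTG. A match is a run of letters and not a binding site.

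Members overlapped the 300-base promoter windows (250 bases before and 50 after a start) of 900 genes, with a median CpG ratio of 0.828 (quartiles 0.7 and 0.933), 24 CpGs and 63.2% GC. The 6010 genes at the other regions called in all 5 DMSO libraries had 0.888 (0.781 to 0.982), 32 CpGs and 70% GC. Promoters touched by no region of any library had a median ratio of 0.247 with 4 CpGs, and all promoters 0.581 with 14. CpG-poor promoters, with a ratio under 0.6, made up 13.9% (11.8 to 16.3) of those at members, 6.64% (6.04 to 7.3) at the other regions, 85.3% of those with no region and 51% of all. Most promoters at members were thus CpG-rich, and the CpG-poor share was larger than in the comparison set over all members. Among the 18 promoters of members with −log10 q of at least 4 in all 5 DMSO libraries the median ratio was 0.91. In 5 equal classes of DMSO peak strength (defined below), from weakest to strongest, the median ratio was 0.813, 0.84, 0.829, 0.814 and 0.881 at members and 0.851, 0.878, 0.879, 0.904 and 0.907 at the other regions. The median was lower at members in every class. The CpG-poor share was 18.4%, 14.4%, 11.4%, 9% and 1.85% at members and 8.04%, 7.27%, 7.91%, 6.37% and 4.64% at the other regions. It was larger at members in the first 4 classes and smaller in the strongest. The member classes held 320, 243, 184, 100 and 54 genes, so the shares in the stronger classes rest on few CpG-poor promoters. No intervals were computed for these classes.

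Of 9 motifs searched on both strands of the 300-base windows, ETS and YY1 sequences were more frequent at members. The ETS core CCGGAAG, bound by ETS family factors, was in 26.6% (23.8 to 29.5) of promoters at members, 18.9% (18 to 19.9) at the other regions and 10.7% of all promoters. AAGATGG, bound by YY1, was in 11.7% (9.73 to 13.9), 6.22% (5.64 to 6.86) and 6.06%. The GC box GGGCGG went the other way, with 68.3% (65.2 to 71.3), 81.6% (80.6 to 82.5) and 44.7%. Over all promoters, the remaining 6 motifs differed by less than 3 percentage points between members and other regions. CCAAT (NFY) was in 34.8%, 32.1% and 35.7%, TGACGTC (CREB and ATF) in 7.44%, 5.62% and 3.64%, and GCGCATG (NRF1) in 8.33%, 7.85% and 4.68%. CACGTG (MYC, MAX and USF) was in 11.2%, 10.8% and 7.45%, TATAAA, the element bound by TBP, in 4.44%, 3.96% and 12%, and TCTCGCG (ZBTB33) in 8.56%, 7.05% and 3.53%. Because members had less GC, the comparison was repeated in 3 equal classes of promoter GC, chosen after the shares were seen. The GC box was then in 59% against 57.2% in the lowest class, 82% against 86.1% in the middle and 98.4% against 96.2% in the highest, with overlapping intervals in each. ETS was in 27.4% (23.9 to 31.1) against 22.5% (20.6 to 24.5), 25% (20.1 to 30.6) against 20.3% (18.6 to 22.1), and 25.4% (16.3 to 37.3) against 14.9% (13.5 to 16.5). The ETS share was thus the higher at members in each class, with intervals that overlapped. In the lowest GC class the intervals did not overlap for YY1 (13.6%, 11 to 16.6, against 8.36%, 7.15 to 9.76) or for the CREB and ATF motif (8.78%, 6.74 to 11.4, against 5.52%, 4.53 to 6.7). In the middle and highest classes they overlapped for both, with YY1 at 9.38% against 6.35% and 3.17% against 4.46%, and CREB and ATF at 4.69% against 6.16% and 6.35% against 5.22%.

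The 5 inhibitor pairs contributed unequally to membership. Of all regions with a DMSO peak, NTC had no DNMT1i peak in 90.3%, UHRF1KO in 90.6% and WT in 91.8%. In RFTSdel the share was 53.1% in replicate 1 and 42.9% in replicate 2. Over the 7868 regions called in all 5 DMSO libraries the shares were 90% in NTC, 73.1% in UHRF1KO, 97.3% in WT, 40.8% in RFTSdel replicate 1 and 23.1% in replicate 2. At most of these 7868 regions, the full-length lines thus had no inhibitor peak and the RFTSdel libraries kept one. Of these regions 5477 (69.6%) had no inhibitor peak in NTC, UHRF1KO and WT, and in those 5477 RFTSdel decided membership: 2709 kept a peak in both RFTSdel replicates, 149 in replicate 1 alone, 1192 in replicate 2 alone, and 1427 (26.1%) in neither. Without replicate 1 the rule gave 2153 members, 24.9% of the 8655 regions called in every DMSO library used. Without replicate 2 it gave 2857, or 35% of 8171.

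**Figure D1:**
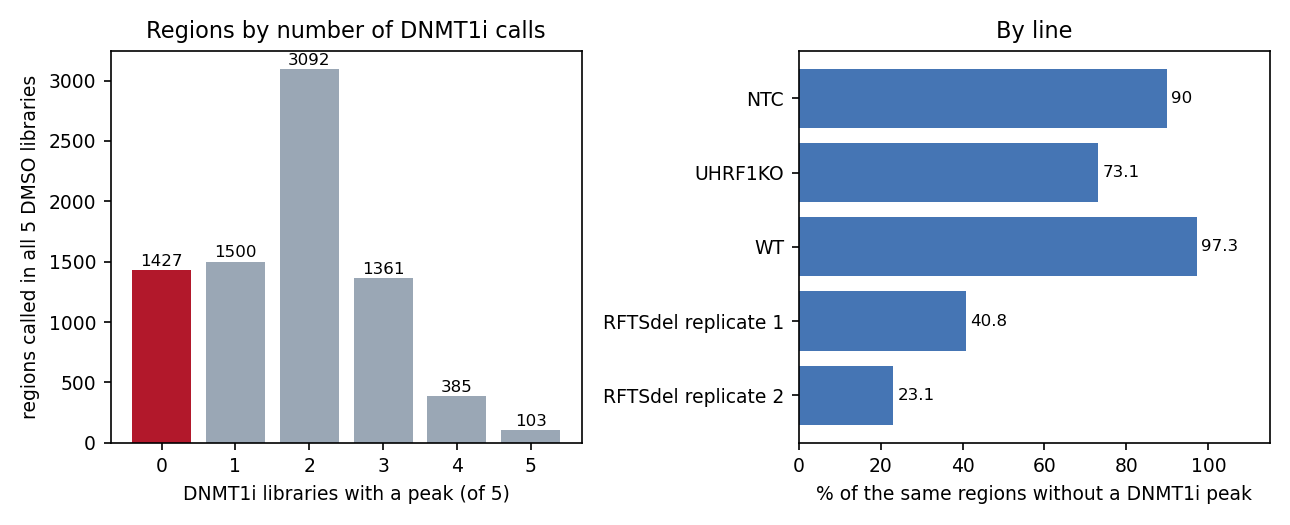
Left, number of regions called in all 5 DMSO libraries (y axis) by how many of the 5 DNMT1i libraries held a peak (x axis), with members in red. Right, percentage of the same regions with no DNMT1i peak in each line. The 1427 members are fewer than the 3092 regions with 2 inhibitor peaks, and the RFTSdel bars (40.8 and 23.1) are the lowest.

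List length and peak strength bear on these counts and their part in the result was not tested. NTC had 23561 DMSO and 5840 DNMT1i peaks, UHRF1KO 32523 and 4640, and WT 16706 and 4254. RFTSdel replicate 1 had 12240 and 7559 and replicate 2 had 14020 and 11138, so the DMSO list was the longer in all 5 pairs. When each DMSO list was reduced to its strongest peaks, as many as its inhibitor list held, 108 of 1359 regions met the rule (7.95%). When only peaks with −log10 q of at least 4 were used in all lists, 217 of 614 did (35.3%), against 18.1% with the full lists. Such a region may still hold a weaker inhibitor peak. The lists give no read counts, so depth is unknown.

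Members were the weaker vehicle sites. Strength was scored within lists: peaks of a DMSO library were ranked by the authors' −log10 q, a region took the percentile of its best peak, and its strength was the lowest of its 5 percentiles. Fold enrichments and q values in this account are the authors', and describe or rank peaks within a list. Median strength was 22.4 (quartiles 11.2 and 38.1) for members and 46.2 for the other regions. From the weakest to the strongest of 5 equal classes, members were 37.8%, 24.9%, 15.9%, 8.39% and 3.68% of the regions. Members were also narrower, with a median of 1058 bp (quartiles 757 and 1443, range 354 to 6200) against 1475 bp for the other regions and 2699 bp for regions called in all 10 libraries. These widths join inhibitor peaks where there are any, and a wider region can meet more peaks, so the rule can set part of this difference. The DMSO peaks alone had median widths of 580, 721, 531, 465 and 559 bp at members (NTC, UHRF1KO, WT, RFTSdel replicates 1 and 2). At the other regions they were 897, 948, 788, 852 and 945 bp.

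The rank of members differed between lines under DMSO. NTC gave them a median percentile of 66.9, UHRF1KO 77.5 and WT 59.4, whereas RFTSdel replicates 1 and 2 gave 35.5 and 42.5. For the other regions it was 77.5, 81.3 and 68.5 in the full-length lines and 69.7 and 72.8 in RFTSdel. Members thus sat above the middle of the full-length lists and below the middle of the RFTSdel lists. In 43.9% of members (626) both RFTSdel percentiles lay below all 3 full-length ones, as in 18.4% of the other regions, and in 1.33% (19) they lay above, as in 10.4%. The lists differ in length, so a percentile places a peak in its own list and shows no change in binding. Membership also turned mostly on the RFTSdel inhibitor calls, so the rule itself may pick regions of low RFTSdel rank, which was not tested. The median fold enrichment of members was 4.06 in NTC, 4.39 in UHRF1KO, 3.96 in WT, 4.31 in RFTSdel replicate 1 and 4.47 in replicate 2.

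Peak width under DMSO was not used directly by the rule and was compared between RFTSdel and full-length DNMT1. Membership turned mostly on the RFTSdel inhibitor calls, so the rule itself may pick regions with narrow RFTSdel peaks, which was not tested. At the other regions the medians were 897, 948 and 788 bp in NTC, UHRF1KO and WT, and 852 and 945 bp in RFTSdel. The median width of the peaks at members was 580 bp in NTC, 721 bp in UHRF1KO, 531 bp in WT, 465 bp in RFTSdel replicate 1 and 559 bp in replicate 2, so the groups overlapped. The means were 512 ± 66.5 bp (SD, n = 2) in RFTSdel and 610.7 ± 98.6 bp (SD, n = 3) in the full-length lines. The difference of −98.7 bp did not exceed the spread between libraries (exact two-sided permutation test, p = 0.4). The smallest p this design allows is 0.2. Within batch 1, WT was 531 bp, between the RFTSdel replicates, and batch 2 held no RFTSdel library.

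Position in the genome separated members from the other regions of the same vehicle set. A listed start of a protein-coding gene lay within 1 kb of 45.9% (43.3 to 48.5) of members, 68.6% (67.4 to 69.7) of the other regions and 22.4% of all merged regions. Members inside a coding gene and away from its ends made up 20.3% (18.3 to 22.5), against 6.47% (5.9 to 7.1) of the other regions and 36.5% of all. Members outside every annotated gene made up 14.4% (12.7 to 16.4), against 4.7% (4.21 to 5.25) and 23.3%. Members therefore lay between the other shared vehicle regions and the whole catalogue in all 3 shares. No test was run over regions, which are not replicates, and the intervals cover counting error only. The shares of regions with exactly 1 inhibitor peak were between those of members and those of the rest, with 63.8% at a start, 9.53% inside and 7.33% outside genes. The 1554 regions with exactly 4 DMSO peaks and no inhibitor peak went further the same way than members. Of those, 31.1% lay at a start, 29.8% inside and 18.8% outside genes, so the pattern was not particular to members.

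The difference in position was smallest among the strongest regions, without a steady fall. In the 5 classes of strength, from weakest to strongest, 43.7%, 51.8%, 62.8%, 54.5% and 75.9% of members lay at a gene end, against 75.5%, 76.4%, 77.3%, 79% and 79.7% of the other regions. The fourth class was about as far apart as the second, and only in the strongest class, of 58 members, did the interval for members (63.5 to 85) hold the value of the other regions. The share outside genes was 15.6%, 17.9%, 10.4%, 9.85% and 6.9% at members and 7.15%, 4.74%, 4.83%, 4.44% and 3.23% at the other regions. With −log10 q of at least 4 the gene-end shares were 75.1% and 79.8%, and with a fold enrichment of at least 4 they were 71.9% and 79%. Both thresholds were also applied to the inhibitor lists, so the members there may include regions with a weaker inhibitor peak. The gene-end share of members was below that of the other regions under all 14 alternative settings tried, with differences from −31.2 to −4.73 percentage points.

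Of the 15 strongest members, 12 lay at a coding-gene start, 2 at an end with no listed start and 1 between genes. The region at GINS4, which encodes a subunit of the replicative helicase, led. Its authors' folds were 4.93, 5.62 and 4.68 for NTC, UHRF1KO and WT, then 7.64 and 7.66 for RFTSdel replicates 1 and 2. All 5 of its percentiles were 89.4 or higher, so this site was among the best peaks of every vehicle list and absent from every inhibitor list. PEPD had folds of 5.49, 4.91 and 5.61 in the full-length lines, in the same order, and 6.78 and 7.66 in RFTSdel. The promoter shared by C2CD3 and PPME1, a phosphatase methylesterase gene, had 4.96, 6.18, 6.33, 6.47 and 6.45. LRRC63 had the highest RFTSdel folds of the 15 strongest, 9.4 and 8.61, beside 4.73, 5.64 and 5.26. The other coding-gene members of the 15 were at TMEM135, DHDDS, COIL (coilin of Cajal bodies), DCUN1D3 and LYRM1, INTS1 (Integrator), IFT81 (ciliary transport), FAM133B, DYNLT2 and ERMARD, SMARCD1 (a BAF remodelling subunit), and BCAT2 and HSD17B14. The 15th, at BCAT2, which encodes the mitochondrial branched-chain aminotransferase, had a strength of 80. In 14 of the 15 both RFTSdel folds were above the 3 full-length ones, the exception being IFT81 with 7.98 in UHRF1KO. Folds of separate lists are not on a common scale, and the 15 were picked by percentile within lists. A percentile of 87.4 stood at a fold of 4.6 in WT (DHDDS), and 86.7 at 6.56 in RFTSdel replicate 1 (COIL). The choice by percentile thus favours higher RFTSdel folds, and the count shows no difference in binding. Over all members the median folds were 4.31 and 4.47 in RFTSdel against 4.06, 4.39 and 3.96.

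Members just inside the rule rested on 1 weak call each. The 5 weakest lay in SLC2A1 (a glucose transporter gene), in RAPGEF1, near CSK, at DSCR9 and at a locus on chromosome 1 with MIR5087. Each had 1 vehicle list in which its percentile was between 0.0245 and 0.163, at −log10 q of 1.02 to 1.09. SLC2A1, for example, had 61.9, 95.4 and 71.6 in NTC, UHRF1KO and WT, 50.7 in RFTSdel replicate 2 and 0.163 in replicate 1, so a single list kept it inside. Just outside were 1500 regions with exactly 1 inhibitor peak, which lay in RFTSdel replicate 2 for 1192, replicate 1 for 149, UHRF1KO for 140, NTC for 15 and WT for 4. The strongest of those were at SEC14L1 (strength 96.9), USP32, DOT1L (the H3K79 methyltransferase recruited by KMT2A fusions, 94.6), LOC124903822 and LOC100996745. A further 1554 regions had no inhibitor peak and 4 of 5 DMSO peaks, the missing one being RFTSdel replicate 1 in 566, WT in 546, RFTSdel replicate 2 in 217, NTC in 178 and UHRF1KO in 47.

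A few genes held several members. GSE1, which encodes a coiled-coil protein of histone deacetylase complexes, held 7 members among its 10 regions called in all 5 DMSO libraries (gene at chr16:85169512-85676200). Their strengths ran from 14.4 to 32.1, all below the 3 GSE1 regions that kept inhibitor peaks (54.5 to 68.6). One of those 3, chr16:85303144-85304349, had folds of 4.77, 4.34 and 5.52 for NTC, UHRF1KO and WT, beside 16.2 and 14.6 for RFTSdel, and it was called in 2 inhibitor libraries. The next member, at chr16:85309690-85311562, had 5, 3.87 and 3.98 and then 3.87 and 4.9. ABR (3 of 6 regions), BAIAP2 (3 of 4), GNG7 (3 of 5), SH2B3 (3 of 4) and UNC13A (3 of 3) were the other genes with 3 or more members. All were picked for these counts, and some are long, such as GSE1 (506.7 kb) and ABR (226.2 kb). Members were 18.1% of all regions called in all 5 DMSO libraries. Of those inside a coding gene and away from its ends, 290 were members and 417 were not. Whether these genes exceed that background was not tested. SH2B3 encodes an adaptor that restrains cytokine signalling in blood cells, GNG7 a G protein subunit and UNC13A a synaptic vesicle priming factor.

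Most members stood alone. With a gap of at most 50 kb, 248 members formed 113 runs and 1179 were single. Runs of 4 or more were 4 in number: around SH2B3 (4 members of 5 regions), in GSE1 (5 of 6), from PER1 through BORCS6 and a tRNA cluster to PFAS on chromosome 17 (4 of 7), and from DOCK6 through TSPAN16 and RAB3D to CCDC159 on chromosome 19 (5 of 5). The nearest inhibitor peak of any line was a median of 23352 bp from a member. It was within 1 kb for 15 members and within 5 kb for 210 (14.7%), and 412 had none within 50 kb. Over all chromosomes, members were 18.1% of the regions called in all 5 DMSO libraries. The share was highest on X, at 28.3% (26 of 92, 20.1 to 38.2), and on chromosome 19, at 22.2% (161 of 726, 19.3 to 25.3). It was lowest on chromosomes 13 (13.1%) and 8 (13.7%). The interval for chromosome 13 (8.75 to 19.2) holds 18.1%, and that for chromosome 8 ended at 17.6. These are the extremes of all chromosomes used and were not tested.

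The 206 members outside genes lay a median of 5851.5 bp from the nearest gene, with 96 within 5 kb and 4 beyond 50 kb. For the 303 other regions outside genes the median was 4712 bp, with 155 within 5 kb and 4 beyond 50 kb. The strongest, chr10:63628635-63630902 near MRPL35P2, had folds of 4.89, 5.62, 4.76, 7.13 and 6.22 (order NTC, UHRF1KO, WT, RFTSdel replicates 1 and 2). It was followed by members near SSC4D, CYP4F22, LOC124904588 and RN7SKP94, with strengths of 76.6, 75.3, 69.4 and 64.8. The farthest from any gene was 138524 bp from HSPA8P13, and the next lay 87945 bp from MYL10 and 74295 bp from LOC105375075, with strengths of 21.5, 19.4 and 28.1. Members deep in a coding gene numbered 290 and lay a median of 19339 bp from the nearest coding start, against 27593 bp for such regions among the others.

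Transfer RNA genes lay within 1 kb of 1.4% of members and 0.559% of the other regions. Of 56 regions called in all 5 DMSO libraries within 1 kb of a tRNA gene, 20 were members, or 35.7% (24.5 to 48.8) against 18.1% of all regions called in all 5 DMSO libraries. They covered 38 of the 84 tRNA genes at regions called in all 5 DMSO libraries (45.2%), and neighbouring tRNA genes share a region. tRNA genes have near-identical copies, so how their reads were placed is uncertain. The strongest of these members lay at the DCT promoter with a phenylalanine tRNA gene, with folds of 5.13, 4.57, 4.46, 5.82 and 5.99 in the order above, and next at TRP-AGG2-6 and TRT-TGT3-1, with 4.7, 4.78, 5.79, 5.6 and 6.05. MicroRNA hairpins were in 8 members (0.561%) and in 83 of the other regions (1.29%). The members held 9, among them MIR191 and MIR425 at the DALRD3 and NDUFAF3 promoters and MIR484 at MARF1 and NDE1. Members at starts of 2 coding genes on opposite strands were 13.9% of those at a start (91), against 11.4% for the other regions, and 7.15% of members lay at a lncRNA end with no coding end, against 5.6%.

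Gene groups differed in how far their vehicle regions were members. Of 6799 protein-coding genes with an end at a region called in all 5 DMSO libraries, 850 (12.5%, 11.7 to 13.3) had only members there, and this share is the background for each group. The lists were chosen with results of these data known and carry no test, and the intervals make no allowance for the number of lists. Genes were counted by their annotated ends. Counting listed starts as well, added after the values were seen, gave 7181 genes and a background of 12.3%, and the list shares stayed inside the intervals of the first count except for the MYC network, which fell from 10% to 0% of 10 genes since MXI1 also had a start at another region. Cytosolic and mitochondrial ribosomal protein genes had intervals above the background of 12.5%. Of 46 ribosomal protein genes with such a region 11 had members only (23.9%, 13.9 to 37.9), with RPL27 first (folds 3.99, 5.72, 6.21, 6.43 and 8.72, same order), then RPS25, RPL27A and RPSA. Mitochondrial ribosomal proteins gave 9 of 36 (25%, 13.8 to 41.1; MRPL21, MRPL50, MRPL39 and MRPL1 first, and MRPL44, of strength 76.9, by a listed start), proteasome subunits 6 of 27 (22.2%, 10.6 to 40.8; PSMD13, PSMD7, PSMC4 and PSMB3) and oxidative phosphorylation 7 of 35 (20%, 10 to 35.9; NDUFA2, ATP5PB and NDUFB2, and ATP5MC2 and COX7A2 by a listed start). Splicing factors gave 7 of 43 (8.12 to 30), translation initiation factors 5 of 32 (6.86 to 31.8) and RNA polymerase and Mediator subunits 3 of 27 (3.85 to 28.1). Counted by annotated ends, the intervals of these lists, of proteasome subunits and of oxidative phosphorylation hold 12.5%. With listed starts counted as well, oxidative phosphorylation gave 9 of 37 (24.3%, 13.4 to 40.1), an interval above the background of 12.3%.

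Replication and cell cycle genes were few, and their shares were not told apart from the background. DNA replication genes gave 5 of 19 (26.3%): GINS4, the clamp loader subunit RFC2, the origin recognition genes ORC5 and ORC4, and DBF4, the activator of the CDC7 kinase. RFC2 had folds of 4.18, 5.83, 4.29, 6.15 and 6.89. Cell cycle genes gave 6 of 28 (21.4%; E2F6, CDC20, PLK1, E2F4, CCNB2 and MAD2L1), DNA damage response 3 of 17 (PARP2, RAD50 and MDM4), and viral sensing and interferon 3 of 11 (MX1, SAMHD1 and IFNAR1). The intervals were 11.8 to 48.8 for replication, 10.2 to 39.5 for cell cycle, 6.19 to 41 for DNA damage response and 9.75 to 56.6 for viral sensing. All hold the background of 12.5%. With listed starts counted as well, viral sensing and interferon gave 4 of 13 (30.8%, 12.7 to 57.6), an interval above the background of 12.3%.

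Of the leukaemia and signalling lists, 1 had an interval below the background: none of 44 RAS, MAPK and PI3K genes had a member, which allows up to 8.03%. The others in this paragraph had intervals that hold 12.5%. None of the 18 KMT2A fusion targets had a member at an end (0 to 17.6), and MEF2C, a transcription factor gene of that list, had one at a listed start. Ubiquitin ligases and deubiquitinases gave 8 of 119 (6.72%, 3.45 to 12.7; FBXO4, USP40, FBXL15 and TRIM55 first), RAB and ARF GTPases 3 of 49 (2.1 to 16.5; ARF5, RAB3D and RAB1B), Notch and WNT 1 of 23 (0.772 to 21; APC), myeloid transcription factors 1 of 23 (0.772 to 21; NFE2, with KLF13 also at another region) and apoptosis 0 of 16 (0 to 19.4; BIK also lay at another region).

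Most chromatin genes and gene families had shares near the background or too few genes to place. The maintenance methylation and methyl-CpG reader list gave 1 of 14 (MBD5, whose promoter is shared with ORC4), SUMO 1 of 15 (RANBP2), heterochromatin 1 of 9 (DAXX), Polycomb and Trithorax 2 of 28 (MTF2 and RBBP5, with PHF19 at a member by a listed start and at other regions too), and acetylation 3 of 25 (SIRT3, SIN3B and HDAC6). Remodelling gave 3 of 20 (SMARCD1, CHD9 and ACTL6A), cohesin and CTCF 2 of 10 (STAG2 and ESCO2) and the MYC network 1 of 10 (MXI1). Imprinted genes gave 1 of 11 (MKRN3), replication-dependent histones 1 of 19 (H4C8) and germline genes 2 of 3 (DMC1 and PRAME). The germline interval, 20.8 to 93.9, lies above the background but rests on 3 genes. Zinc finger genes gave 24 of 174 (13.8%; ZNF142, ZNF460, ZNF852 and ZNF230 first), solute carriers 14 of 118 (11.9%), HOX genes 1 of 8 (HOXC11), potassium channels 1 of 14 (KCNN4), and lymphoid and erythroid genes 1 of 5 (CD4). Clustered protocadherins and olfactory receptors had no region called in all 5 DMSO libraries.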

How the data were processed

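Anti-GFP ChIP-seq of MV4-11 cells was deposited as 11 lists of broad peaks, called per library. Of the 13 samples in the labels, the 2 inputs were not used here. The authors used cutadapt, BWA, Picard, MACS2 and deepTools with GRCh38, per the submitters' processing notes. For versions, settings and the peak-calling control, the sources used here give nothing. In the deposited lists, fold is a ratio of peak to background, and the deposited −log10 columns hold −log10 p and −log10 q. The deposited score column was not used. The lowest −log10 q of a list lay between 1 and 1.03. The series' design text numbers the batches the other way round from the sample labels, which were followed.

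Peaks on chromosomes 1 to 22 and X overlapping a parental peak (426 peaks) by 1 bp were removed, and overlapping peaks of the 10 GFP-DNMT1 lists were merged. RefSeq (GRCh38.p14) gave the ends of 59098 genes, 19974 of them protein-coding, with no strand or exons, and its promoter table gave starts and sequences (34961 entries for 27195 genes). Motifs and CpGs were counted on both strands. The members and the 37 gene lists were chosen with earlier results of these data known. Named regions were the 15 strongest members, up to 4 genes per list by strength, 5 intergenic members by distance and 5 by strength, 5 just inside and 5 just outside the rule, and genes with 3 or more members. Further list genes, tRNA and miRNA loci were named after their values were seen. Promoters on chromosome 8 were not printed. Alternatives changed the parental filter, the thresholds, the merging gap, the window, the gene set, the list lengths and the libraries used. The code returned 8 of 8 known answers on simulated lists. The tools were pandas 2.3.3 and numpy 2.4.6 under Python 3.11.15, with scipy 1.17.1, and matplotlib 3.10.9 for plots.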

Additional observations from a re-analysis of the deposited data

How the results depend on the processing

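The number of members was 925 with −log10 q of at least 2, 217 with at least 4 and 842 with a fold enrichment of at least 4. It was 108 when each DMSO list was shortened to its inhibitor list, and 2153 to 2857 when 1 RFTSdel replicate was left out. As shares of the regions called in every DMSO library used, these were 21.1%, 35.3%, 33.2%, 7.95% and 24.9% to 35%, against 18.1%. The q and fold thresholds also applied to the inhibitor lists, so a member there may hold a weaker inhibitor peak. The gene-end share of members was 62.4%, 75.1%, 71.9% and 63.9% in the first 4 of these settings and 45.7% to 58.5% without 1 replicate. It was 56.6% with peaks within 5 kb merged, 58% with a 3 kb window and 61.2% with the ends of all genes. The share outside genes was 9.41%, 4.61%, 6.18% and 11.1% in the same 4 settings, 11.6% to 16.7% without 1 replicate, 12% with peaks within 5 kb merged and 24.3% when only coding genes counted. It was above that of the other regions in 13 of 13 alternatives, by 1.33 to 14.7 percentage points. The median CpG ratio was 0.91 among the 18 promoters of members with −log10 q of at least 4 in all 5 DMSO libraries. With genes counted by listed starts as well as ends, the MYC network share was 0% of 10 genes, against 10%. The same count moved the intervals of oxidative phosphorylation (13.4 to 40.1) and of viral sensing and interferon (12.7 to 57.6) above the background of 12.3%. The cause of these shifts was not tested, apart from that of MXI1, which had another start at a region with inhibitor peaks. The width difference between RFTSdel and full-length lines stayed negative in the alternatives run, from −145.7 to −43.5 bp (−145.7 to −51.7 without 1 replicate), in a design too small to pass 0.05. No paired analysis was possible because the DMSO and DNMT1i pairs define the members, which leaves nothing to test between them, and the only test compares lines under DMSO, where RFTSdel and the other lines share replicate number 1 alone. Depth is unknown, which limits any reading of a missing peak.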
